A study of Mus musculus with 48 samples.

Results

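Cells that had reached the *Nanog*-GFP+ stage of MKOS reprogramming were compared with iPSCs from the same system that no longer needed the transgene. The 2 groups, 3NG+ E-CAD+ cells (3 libraries) and MKOS iPSCs cultured without doxycycline (2 libraries), were taken by their sample labels and made up 5 of the 48 RNA-sequencing libraries of the series. MKOS is a polycistronic cassette that expresses c-Myc, *Klf4*, Oct4 and *Sox2* in that order from a doxycycline-inducible promoter. It had been targeted into the third intron of *Sp3* in TNG ESCs, which carry GFP in one *Nanog* allele, together with a CAG-promoter-driven rtTA and an mOrange reporter. MEFs (mouse embryonic fibroblasts) from chimeric embryos of these ESCs, which also hold host cells, were diluted with wild-type MEFs and reprogrammed with doxycycline and vitamin C in serum medium with LIF. Both groups were thus labelled as carrying the *Nanog* reporter and the cassette, and only the 3NG+ cells were harvested while the cassette was induced. The name 3NG+ stands for the CD44low ICAM1high gate and the presence of Nanog-GFP, and the cells were sorted by flow cytometry, whereas the iPSCs were an established, doxycycline-independent population. The labels give 10 or 15 days of doxycycline for the sorted populations, and the methods of the study give day 10. Reference groups used below were MKOS iPSCs in 2i medium (which blocks the MEK and GSK3 kinases), TNG MKOS ESCs (the parental ESCs with the same cassette, not induced), MKOS and wild-type MEFs, MKOS 2NG- and 3NG- E-CAD+ intermediates, and the 3NG+ cells and iPSCs of the OKMS cassette, in which Oct4 comes first. The study reports that OKMS also holds a *Klf4* with a shorter N terminus, which yields less protein than the long form in MKOS. The cassettes thus differ in more than the order of the factors. Neither the labels nor the methods say whether libraries of a group came from separate cultures. The p-values thus measure only a spread between libraries, which was estimated over all 48 libraries and not from the 5 compared alone.

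During reprogramming, fibroblasts lose their mesenchymal program, become epithelial, and then switch on the endogenous pluripotency genes in steps. *Nanog* is among the genes activated late, and its reporter is a usual sign that the pluripotency circuit (Oct4, *Sox2*, *Esrrb*, *Klf2* and others) has started to run on its own. What can still separate such cells from an established line includes residual somatic transcripts, imprinted loci such as Dlk1-Dio3, and the small fraction of cells in pluripotent cultures that pass through a two-cell-embryo-like state marked by Zscan4 genes.

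The 3NG+ libraries held 4754632, 5062427 and 9730611 reads on transcripts, and the iPSC libraries held 9643768 and 5636706. At this depth 3 reads corresponded to 0.309 to 0.636 CPM. Levels are given throughout as CPM (reads of a gene scaled to the reads on transcripts of its library, with TMM, edgeR's correction for library composition) in the order of the replicate numbers. The libraries correlated at 0.942 to 0.956 within the 3NG+ group (Pearson, log2(CPM + 1), across genes), at 0.953 between the iPSC libraries, and at 0.915 to 0.933 between the groups. Mitochondrial transcripts took 9.01%, 5.33% and 8.02% of the reads in the 3NG+ libraries and 6.16% and 6.86% in the iPSC libraries. Repeats took 33.1% of all reads in 3NG+ replicate 1, which was the highest share of the 5, and 18.7% to 22.9% in the other 4.

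The pluripotency genes checked were present in both groups, whereas *Icam1* RNA was lower in every 3NG+ library than in the iPSCs but was not called. *Pou5f1*, which encodes OCT4, was at 1018, 1048 and 942 CPM in the 3NG+ libraries and 977 and 983 CPM in the iPSC libraries, and *Zfp42*, a marker of pluripotent cells also known as Rex1, was at 759, 1112 and 902 CPM and 839.7 and 708 CPM. The summed level of 14 late pluripotency genes was 11394, 13711 and 13729.7 CPM in the 3NG+ libraries and 18201 and 17225 CPM in the iPSC libraries, against 4.79 and 12.4 CPM in the MKOS MEFs. *Dppa5a* alone made up 84% to 87.2% of this sum in the 5 libraries. Without *Dppa5a* the sum was 1734, 1749 and 2201 CPM in the 3NG+ libraries and 2535 and 2549 CPM in the iPSC libraries, and at most 859 CPM in the 2NG- and 1551 CPM in the 3NG- intermediates. Both groups thus stood above these intermediates for the sum with and without *Dppa5a*. Of the 4 genes behind the sort, none was called by edgeR or by DESeq2, and 1 had an unadjusted p under 0.05. That was *Icam1*, at 11.8, 1.48 and 12.2 CPM in the 3NG+ libraries and 34.2 and 36.3 CPM in the iPSC libraries (log2 change -2.03 ± 0.62, adjusted p = 0.0753), and all 3NG+ libraries lay below both iPSC libraries although the gate selected cells with high ICAM1 protein. *Icam1* was at 3.92, 0 and 4.2 CPM in the 2NG- cells, which were sorted as ICAM1low, and at 11.8, 15.6 and 17.9 CPM in the 3NG- cells. Thus 3NG+ replicate 2 lay within the 2NG- range, whereas replicates 1 and 3 lay above every 2NG- library and near the lowest 3NG- library. No 3NG+ library reached the middle 3NG- library. *Cdh1*, which encodes E-CAD, was at 69.8, 67.2 and 96 CPM in the 3NG+ libraries and 144 and 122 CPM in the iPSC libraries (adjusted p = 0.425), *Nanog* was at 49.3, 92.6 and 95.2 CPM and 109 and 42.1 CPM (adjusted p = 1), and *Cd44* was at 23.7, 2.97 and 5.61 CPM and 5.36 and 2.71 CPM (adjusted p = 0.518).

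Fibroblast matrix genes, macrophage genes and the epithelial genes *Krt8*, *Sfn* and *Lgals7* were higher in 3NG+ cells than in iPSCs. Zscan4 genes, maternally expressed transcripts of the Dlk1-Dio3 locus, several glycolysis genes and a set of X-linked genes were lower. Of 13 naive pluripotency factors 1 was called, and of 14 late pluripotency genes none. So few calls are no result about these lists, since few genes were called at all (2.11%, as given next). The edgeR quasi-likelihood test, fitted over all 48 libraries, called 330 of 15622 genes (2.11%) at a Benjamini-Hochberg FDR of at most 0.05, which is the adjusted p given below. Of these, 201 (1.29% of the genes tested) were higher in 3NG+ cells and 129 (0.826%) were lower. At an unadjusted p under 0.05 there were 2214 genes (14.2%). The shares of 2.11% and 14.2% are the background for the counts of each list below, and a count near them is no result about its list. The lists were chosen with earlier results of these data known, so that shares above the background are only a description. All 3NG+ libraries lay above both iPSC libraries for 13.3% of the genes tested and below both for 15.4%, and separated groups were therefore common. The median log2 change over all genes tested was 0. The count depended on single libraries, and was 197, 219 and 254 without 3NG+ replicates 1, 2 and 3, and 116 and 120 without iPSC replicates 1 and 2, where the lone iPSC library was assumed to vary like the other groups. These are bulk libraries, in which fewer cells with a transcript and less of it per cell cannot be told apart.

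**Figure D1:**
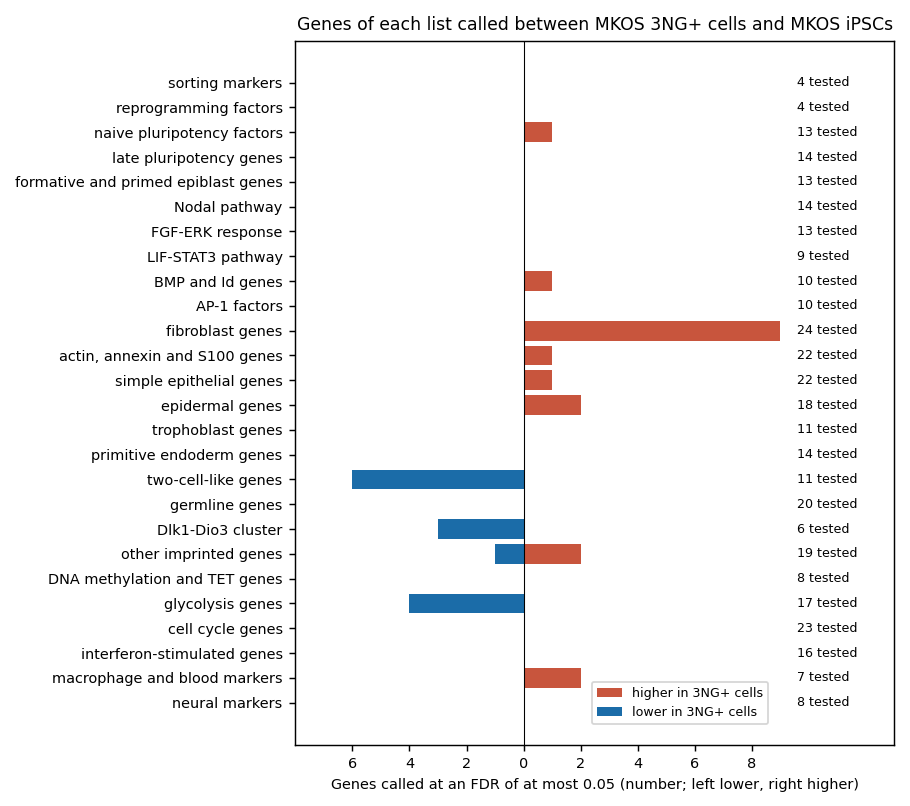
Number of genes of each of 26 lists called higher (right) or lower (left) in 3NG+ cells than in iPSCs at an FDR of at most 0.05, with the number tested at the right edge. Fibroblast genes had the most higher calls (9 of 24 tested), two-cell-like genes the most lower calls (6 of 11 tested), and 15 lists had none.

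Among called genes whose groups did not overlap, 12 with a mean of at least 5 CPM in 3NG+ cells had the largest fitted increase. None of the 12 had a read in either iPSC library. For such genes only a lower bound on the fold change can be given, by setting the iPSC libraries at their floor of 3 reads. A rank by the fit thus favors genes at 0. *Col1a2* and *Col3a1*, with reads in both groups, had fitted increases of 190- and 185-fold, above each bound given here. The group of 12 held myeloid genes. *C1qb*, a subunit of complement C1q, was at 45, 4.45 and 2.8 CPM in the 3NG+ libraries (at least 40.9-fold higher), and *Tyrobp*, a signaling adaptor of myeloid cells, was at 41.6, 4.45 and 0.97 CPM (at least 36.8-fold). It also held stromal and matrix genes, in which the 3NG+ libraries were closer to each other. *Thbs2*, which encodes a matricellular thrombospondin, was at 9.94, 5.93 and 6.36 CPM (at least 17.4-fold), *Aspn*, a small leucine-rich proteoglycan of the matrix, was at 10.5, 5.72 and 5.71 CPM (at least 17.2-fold), and *Prrx1*, a transcription factor of mesenchyme, was at 10.5, 3.39 and 11.1 CPM (at least 19.6-fold). *Penk*, which encodes proenkephalin, was at 1.83, 5.3 and 27.6 CPM (at least 27.2-fold), and *Ly6c1* was at 7.91, 3.81 and 19.6 CPM (at least 24.5-fold). *Dmgdh*, a mitochondrial enzyme of choline breakdown, was at 9.53, 12.5 and 12.1 CPM (at least 26.7-fold), and the uncharacterized gene *9030619P08Rik* was at 11.2, 11.4 and 21.5 CPM (at least 34.5-fold). The last 3 were *Slurp1*, a secreted protein of keratinocytes, at 34.9, 1.69 and 2.26 CPM, *Cyp1b1*, a cytochrome P450, at 18.1, 0.636 and 2.26 CPM, and *Nrp1*, a co-receptor for semaphorins and VEGF, at 16, 0.847 and 3.34 CPM (at least 30.4-, 16.4- and 15.8-fold). Of the 12, *C1qb*, *Tyrobp*, *Slurp1*, *Cyp1b1* and *Nrp1* were highest in 3NG+ replicate 1 and were no longer called without it (adjusted p of 0.152, 0.267, 0.15, 0.226 and 0.107). *Penk* was highest in replicate 3 and was not called without it (adjusted p = 0.0926), and *Dmgdh* missed the threshold without replicate 2 (adjusted p = 0.0513). Without iPSC replicate 1 only *Thbs2* and *Aspn* of the 12 were still called.

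The 12 genes with the largest fitted decrease were genes of the two-cell-like state and little-characterized genes. Of these 12, 11 had no reads in any 3NG+ library and *Zscan4b* had 1 read, in replicate 1. Besides 5 Zscan4 genes and *Tcstv1*, which are described below with their family, they were *AF067061* (10.2 and 23.5 CPM in iPSCs, at least 32.2-fold lower in 3NG+ cells), A430089I19Rik_loc4 (11.3 and 15.2 CPM, at least 25.4-fold), *LOC639910* (17 and 7.77 CPM, at least 23.7-fold), *Gm13043* (7.32 and 10.1 CPM, at least 16.7-fold), *1700020N01Rik* (2.89 and 9.21 CPM, at least 11.6-fold) and *Gm13119* (6.29 and 4.7 CPM, at least 10.5-fold). *AF067061* and A430089I19Rik_loc4 were called without any 1 of the 5 libraries, and *Gm13119* was called in none of these fits (adjusted p from 0.0951 to 0.138). *Gm13043* and *1700020N01Rik* were called only without iPSC replicate 1 (adjusted p up to 0.0661 and 0.128 in the other fits), and *LOC639910* was not called without 3NG+ replicate 3 or iPSC replicate 1 (adjusted p of 0.0527 and 0.0616).

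**Figure D2:**
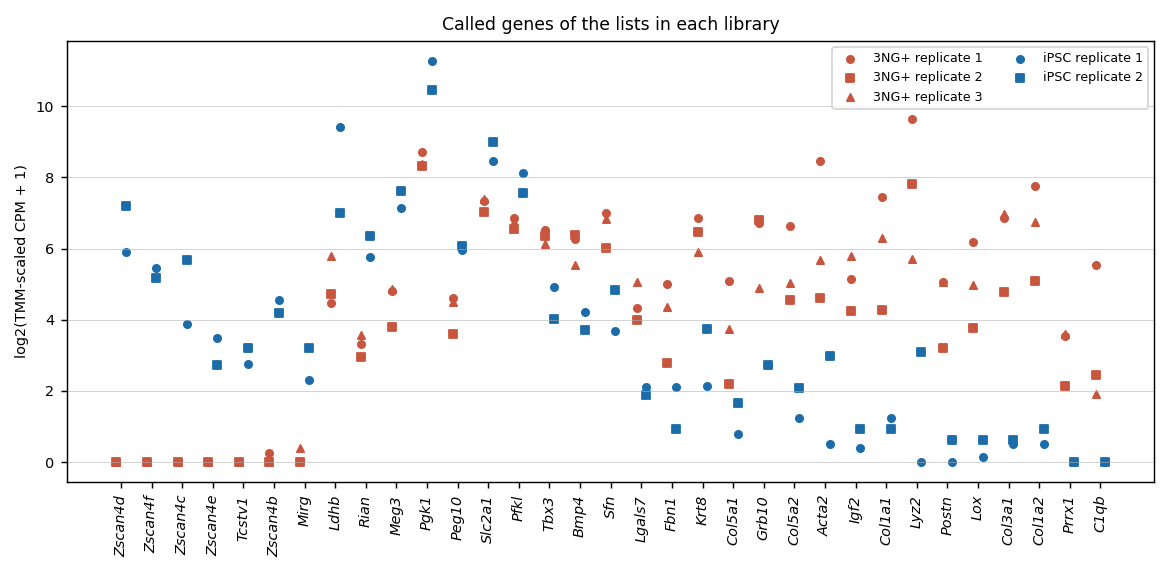
Level of the 33 called list genes in each library, as log2(TMM-scaled CPM + 1), ordered by log2 change, with 3NG+ replicates in red and iPSC replicates in blue. For the Zscan4 genes at the left the 3NG+ points lie at or near 0, for Col1a1, Col1a2 and Col3a1 toward the right the iPSC points lie near 0, and 3NG+ replicate 2 lies lowest of the 3NG+ points for these 3.

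Of 13 naive pluripotency factors, 1 was called (7.69%, against 2.11% of all genes), and the median log2 change of the list was 0.12. *Tbx3*, a T-box factor that sustains ESC self-renewal, was higher in 3NG+ cells than in iPSCs. It was at 91.5, 79.9 and 69.3 CPM in the 3NG+ libraries and 29 and 15.2 CPM in the iPSC libraries (log2 change 1.85 ± 0.51, adjusted p = 0.0417), so that every 3NG+ library was above both iPSC libraries. The call was marginal, and no fit without 1 of the 5 libraries made it (adjusted p from 0.0591 to 0.363). *Esrrb*, an orphan nuclear receptor of the naive circuit, was at 106, 143 and 118 CPM in the 3NG+ libraries and 175 and 49.9 CPM in the iPSC libraries (adjusted p = 0.965), and iPSC replicate 2 was the lowest of the 5 libraries. Replicate 2 was also the lowest library for *Tfcp2l1* (55.2, 70.1 and 80.2 CPM and 85.9 and 29.3 CPM), *Prdm14* (10.5, 15.5 and 13.2 CPM and 11.8 and 3.61 CPM) and *Nanog*. The iPSC libraries thus differed from each other more than the group means did for *Esrrb* and *Nanog*. *Klf2*, a factor of the naive circuit, was at 37.9, 30.1 and 50.9 CPM in the 3NG+ libraries and 142 and 77.5 CPM in the iPSC libraries and missed the threshold (log2 change -1.47 ± 0.43, adjusted p = 0.0656), although DESeq2 called it. *Dppa3*, a maternal factor also known as Stella, was at 23.7, 64.2 and 142 CPM and 319.8 and 119 CPM (adjusted p = 0.352), with overlapping groups.

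None of the 14 late pluripotency genes was called by edgeR or DESeq2, and 1 of them (*Tdgf1*, the *Nodal* co-receptor) had an unadjusted p under 0.05. The median log2 change was -0.37. *Utf1*, a chromatin factor of ESCs, was at 79.9, 108 and 142 CPM in the 3NG+ libraries and 155 and 139 CPM in the iPSC libraries, and *Dppa5a* was at 9659.5, 11961 and 11529 CPM and 15666 and 14676 CPM. *Dppa4*, *Sall4* and *Lin28a* had adjusted p-values of 0.98, 0.98 and 0.868. Of the 4 reprogramming factors none was called by either tool, and 2 had an unadjusted p under 0.05. *Myc* was at 47.1, 28.8 and 43.4 CPM in the 3NG+ libraries and 8.97 and 26.2 CPM in the iPSC libraries (log2 change 1.19 ± 0.52, adjusted p = 0.267) and *Sox2* at 135, 164 and 169 CPM and 357 and 225 CPM (log2 change -0.90 ± 0.40, adjusted p = 0.274). The counts do not separate transcripts of the cassette from those of the endogenous genes.

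None of 13 formative and primed epiblast genes was called by edgeR or DESeq2. An unadjusted p under 0.05 (14.2% of all genes) was found for 2 (*Dnmt3a* and *Lef1*, both on the lower side). *Otx2*, which drives exit from the naive state, was at 37.1, 56.6 and 63.4 CPM in the 3NG+ libraries and 87.2 and 71.2 CPM in the iPSC libraries (adjusted p = 0.822), and *Foxa2* and *Cer1*, genes of later germ layers, had no reads in the 5 libraries. Of 8 DNA methylation and TET genes tested none was called by either tool and 1 (*Dnmt3a*) had an unadjusted p under 0.05. The de novo methyltransferase gene *Dnmt3a* was at 37.7, 62.7 and 86.3 CPM in the 3NG+ libraries and 84.2 and 193 CPM in the iPSC libraries (adjusted p = 0.183) and its cofactor gene *Dnmt3l* at 95.5, 118 and 188 CPM and 176 and 331 CPM (adjusted p = 0.464).

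*Bmp4*, a ligand that supports ESC self-renewal through Id genes, was higher in 3NG+ cells than in iPSCs. It was at 75.5, 81.8 and 45.3 CPM in the 3NG+ libraries and 17.5 and 12.1 CPM in the iPSC libraries (log2 change 2.18 ± 0.61, adjusted p = 0.0477), and the groups did not overlap. Without any 1 library other than 3NG+ replicate 3, it was not called (adjusted p from 0.11 to 0.317). It was the single call among 10 BMP and Id genes (10%, against 2.11% of all genes). Of the Id genes, which BMP signaling induces, *Id1* was at 87.4, 57.6 and 50.2 CPM in the 3NG+ libraries and 17.8 and 256 CPM in the iPSC libraries and *Id2* at 23.3, 10.2 and 19.7 CPM and 8.04 and 79.3 CPM, where the iPSC libraries lay on either side of the 3NG+ libraries. *Id3*, at 169, 153 and 182 CPM against 16.7 and 140.2 CPM, was not called (adjusted p = 0.462).

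None of the 14 *Nodal* pathway genes was called by either tool. An unadjusted p under 0.05 (14.2% of all genes) was found for 3 (*Lefty1* and *Tdgf1* on the lower side, *Pcsk6* on the higher side). The pathway's 2 secreted inhibitors had fitted changes of opposite sign. *Lefty1* was at 38.3, 35 and 25.7 CPM in the 3NG+ libraries and 163 and 97 CPM in the iPSC libraries (log2 change -1.99 ± 0.96, adjusted p = 0.335), and *Lefty2* was at 409, 356 and 179.5 CPM and 150.3 and 76.1 CPM (log2 change 1.47 ± 0.77, adjusted p = 0.384). In both the groups did not overlap, but neither passed the test. The ligand gene *Nodal* itself was at 30.2, 59.5 and 49.4 CPM and 44.3 and 62.1 CPM.

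None of 13 FGF-ERK response genes was called by edgeR, with 1 at an unadjusted p under 0.05. That gene, *Egr1*, an immediate early gene, was at 19.9, 24.1 and 21.7 CPM in the 3NG+ libraries and 7.01 and 1.26 CPM in the iPSC libraries (log2 change 2.32 ± 0.67, adjusted p = 0.054), and DESeq2 called it. *Dusp6* and *Spry2*, feedback inhibitors of ERK signaling, were at 28, 32.2 and 38.2 CPM and 33.8 and 46.1 CPM, and at 25.8, 29.4 and 22.3 CPM and 31.4 and 17.7 CPM. Among 10 AP-1 factors edgeR called none, 4 had an unadjusted p under 0.05 (14.2% of all genes), all on the higher side, and DESeq2 called 1. *Fos*, the gene DESeq2 called, was at 28.4, 12.5 and 34.9 CPM in the 3NG+ libraries and 7.42 and 1.26 CPM in the iPSC libraries (adjusted p = 0.0737 with edgeR). None of 9 LIF-STAT3 pathway genes was called by either tool, with 1 (*Stat3*) at an unadjusted p under 0.05, and *Socs3*, the feedback inhibitor of STAT3, was at 9.74, 0.847 and 19.5 CPM and 32.9 and 14.8 CPM.

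Genes of collagens and other matrix proteins were higher in 3NG+ cells than in iPSCs. Of 24 fibroblast genes tested, 9 were called (37.5%, against 2.11% of all genes), all of them higher, and the median log2 change of the list was 3.07. *Col1a1*, the α1 chain of type I collagen, was at 174, 18.4 and 77.6 CPM in the 3NG+ libraries and 1.34 and 0.903 CPM in the iPSC libraries (log2 change 6.25 ± 0.78, adjusted p = 1.36e-06). Its partner chain *Col1a2* was at 216, 33 and 106 CPM in the 3NG+ libraries and 0.412 and 0.903 CPM in the iPSC libraries (log2 change 7.57 ± 0.79, adjusted p = 2.94e-08), and *Col3a1*, of type III collagen, was at 115, 26.3 and 125 CPM in the 3NG+ libraries and 0.412 and 0.542 CPM in the iPSC libraries (log2 change 7.53 ± 0.80, adjusted p = 3.65e-08). In all 3 chains replicate 2 was the lowest 3NG+ library and was still far above the iPSCs. The other calls were *Col5a1*, *Col5a2*, *Prrx1*, *Postn* (periostin), *Fbn1* (fibrillin) and *Lox*, the enzyme that crosslinks collagen, which was at 71.4, 12.7 and 30.7 CPM in the 3NG+ libraries and 0.103 and 0.542 CPM in the iPSC libraries (log2 change 7.05 ± 1.11, adjusted p = 0.000105). *Fn1*, the fibronectin gene, which ESCs express too, was at 314, 187 and 242 CPM in the 3NG+ libraries and 299 and 100.3 CPM in the iPSC libraries (adjusted p = 0.772). Of the others, *Thy1* was at 10.5, 8.9 and 17.1 CPM in the 3NG+ libraries and 2.37 and 4.7 CPM in the iPSC libraries and *Twist1* at 2.64, 0 and 1.83 CPM and 1.24 and 0 CPM, and neither was called. The 9 genes were also called without any single 3NG+ library, and 7 and 8 were called without iPSC replicates 1 and 2.

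The summed level of the 24 genes was 1177, 359.9 and 815 CPM in the 3NG+ libraries and 329.5 and 131 CPM in the iPSC libraries, and *Fn1* alone made up most of the latter. It was 7816 and 8208 CPM in the MKOS MEFs, and 1094 and 1988 CPM in the lowest and highest library of the 3NG- cells. Since the reprogramming cultures were a mixture with wild-type MEFs, a gene that separates these from the transgenic cells was looked for after the values had been seen. *Hprt*, an X-linked gene of purine salvage, was at 187 and 202 CPM in wild-type MEFs and at 3.43 and 3.96 CPM in MKOS MEFs, and at 0.109 and 0.128 CPM in TNG MKOS ESCs. In the contrast it was at 12.8, 1.91 and 4.74 CPM in the 3NG+ libraries and 0.412 and 0.361 CPM in the iPSC libraries (log2 change 3.97 ± 0.89, adjusted p = 0.00884). As a percent of the mean of the wild-type MEFs, *Hprt* stood at 6.57%, 0.981% and 2.44% in the 3NG+ libraries, and as a percent of that of the MKOS MEFs at 346%, 51.6% and 128%. Only 3NG+ replicate 1 was thus well above the level of the MKOS MEFs, which came from chimeric embryos that also hold host cells. Every 3NG+ library lay above both TNG MKOS ESC libraries and both iPSC libraries. The cells were sorted for E-CAD, low CD44, high ICAM1 and Nanog-GFP, and wild-type MEFs carry no GFP reporter. The counts hold no measure of the purity of the sort. What part of the matrix transcripts came from cells without the transgene was not tested.

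*Lyz2* and *C1qb*, genes of macrophages, were higher in 3NG+ cells than in iPSCs as well. Their lowest 3NG+ library was replicate 3, not replicate 2 as for the collagens. They were the 2 calls among 7 macrophage and blood markers tested (28.6%, against 1.29% of all genes called higher), and the median log2 change was 6.73, or 3.92 with genes at 0 set to their bound. *Lyz2*, the lysozyme of myeloid cells, was at 797, 222 and 51 CPM in the 3NG+ libraries and 0 and 7.59 CPM in the iPSC libraries (log2 change 6.73 ± 1.70, adjusted p = 0.024), and *C1qb* is given above. The sum over the list was 896, 246 and 73.4 CPM in the 3NG+ libraries and 9.69 and 24.2 CPM in the iPSC libraries, so that replicate 1 was highest by a wide margin. *C1qa* and *C1qc*, the other chains of C1q, were at 20.1, 4.66 and 0.323 CPM and 18.3, 0.847 and 0.216 CPM and at 0 in both iPSC libraries, but were not called (adjusted p of 0.152 and 0.14). *Ptprc*, the defining pan-leukocyte gene CD45, was at 0.811, 0 and 1.51 CPM and 0 and 0 CPM, and *Csf1r*, the macrophage growth factor receptor, at 4.26, 0.636 and 0.755 CPM and 0 and 0 CPM. *Lyz2* was at 1658, 884 and 96.5 CPM in the 3NG- libraries of the same numbers, at 189 and 234 CPM in wild-type MEFs, and at 14.8 and 11.7 CPM in MKOS MEFs. Neither *Lyz2* nor *C1qb* was called without 3NG+ replicate 1 (adjusted p of 0.0933 and 0.152). Without iPSC replicates 1 and 2 the adjusted p of *Lyz2* was 0.293 and 0.0568. The part of macrophages in the other differences was not tested.

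Of 22 actin, annexin and S100 genes, 1 was called (4.55%, against 2.11% of all genes). *Acta2*, smooth muscle actin, was at 352, 23.5 and 50.6 CPM in the 3NG+ libraries and 0.412 and 6.86 CPM in the iPSC libraries (log2 change 5.44 ± 1.19, adjusted p = 0.00752), and it was not called without 3NG+ replicate 1 (adjusted p = 0.0882) or iPSC replicate 1 (0.184). Another 10 genes of the list had an unadjusted p under 0.05 (14.2% of all genes), all on the higher side, and the median log2 change was 1.09. *Vim*, vimentin, was at 214, 46.8 and 96.8 CPM and 67.5 and 148 CPM, with overlapping groups.

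*Krt8*, a keratin of simple epithelia, was higher in 3NG+ cells than in iPSCs. It was the single call among 22 simple epithelial genes (4.55%, against 2.11% of all genes). It was at 114, 87.5 and 59.3 CPM in the 3NG+ libraries and 3.4 and 12.5 CPM in the iPSC libraries (log2 change 3.50 ± 0.62, adjusted p = 0.000495), and the groups lay far apart. Its level was 833, 867 and 554 CPM in 2NG- cells and 361, 297 and 240.1 CPM in 3NG- cells, so that the levels of the groups descended in the order 2NG-, 3NG-, 3NG+ and iPSCs without overlap. Without iPSC replicate 1 it was not called (adjusted p = 0.0635). *Krt18*, the partner keratin of *Krt8*, was at 14.6, 9.53 and 18.8 CPM and 11.7 and 6.14 CPM (adjusted p = 0.562), and *Epcam* was at 49.7, 41.9 and 58.1 CPM and 130.2 and 94.8 CPM (adjusted p = 0.179). Over the 22 genes the median log2 change was -0.225. An unadjusted p under 0.05 (14.2% of all genes) was found for 3, *Krt8* on the higher side and *Epcam* and *Cldn6* on the lower side.

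Of 18 epidermal genes tested, 2 were called (11.1%), both higher (1.29% of all genes), and the median log2 change was 2.39, or 1.22 with genes at 0 set to their bound. *Sfn*, the 14-3-3σ protein of stratified epithelia, was at 127, 63.3 and 113 CPM in the 3NG+ libraries and 12 and 27.6 CPM in the iPSC libraries (log2 change 2.37 ± 0.65, adjusted p = 0.0416), and *Lgals7*, galectin-7, was at 19.1, 14.8 and 32.5 CPM in the 3NG+ libraries and 3.3 and 2.71 CPM in the iPSC libraries (log2 change 2.87 ± 0.77, adjusted p = 0.0348). The sum over the list was 357, 145 and 239 CPM in the 3NG+ libraries against 31.7 and 67.2 CPM in the iPSC libraries, and it reached 1812 and 2847 CPM in the lowest and highest 2NG- library. The defining basal keratin genes *Krt5* and *Krt15* had no reads in the 5 libraries, and *Krt14* was at 19.1, 0.636 and 1.19 CPM and 0 and 0 CPM. Neither call was made without 3NG+ replicate 1 (adjusted p of 0.109 and 0.0526), without replicate 3 (0.0856 and 0.124), or without iPSC replicate 1 (0.444 and 0.254) or 2 (0.0931 and 0.219).

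**Figure D3:**
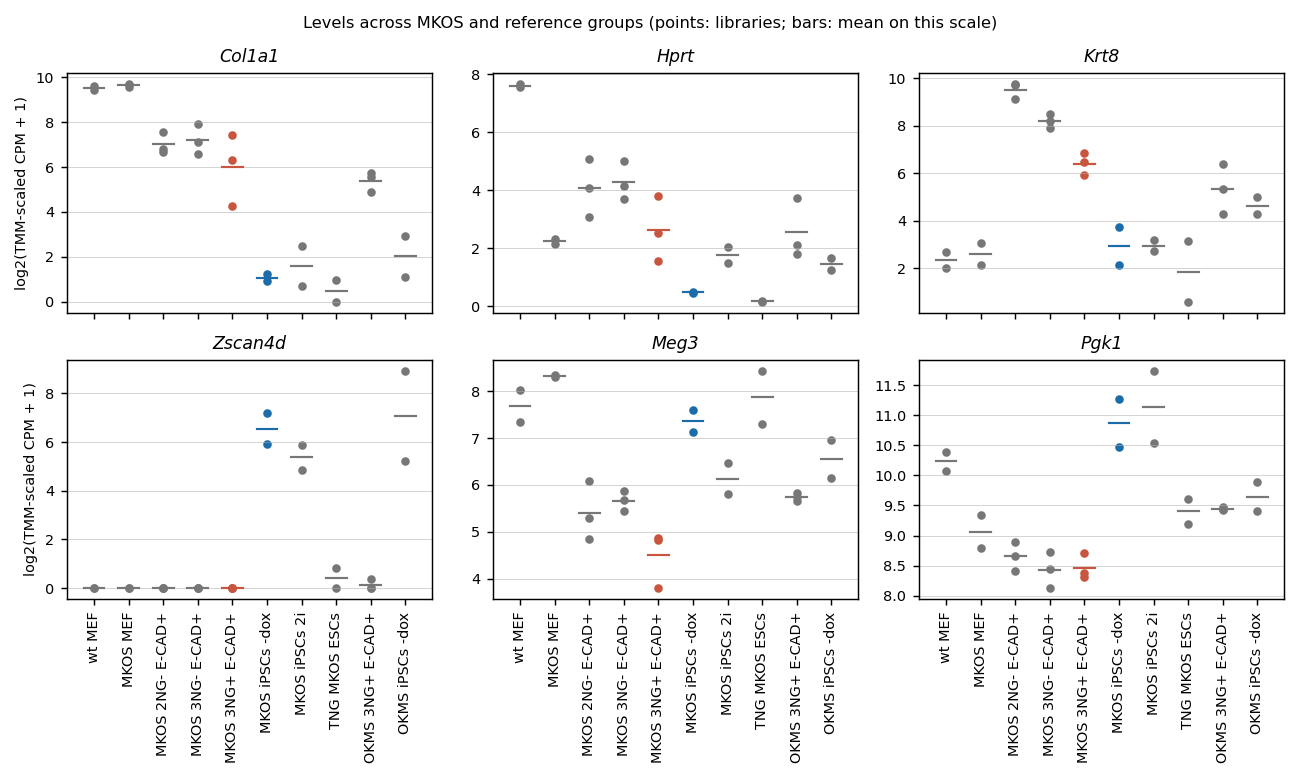
Level of 6 genes in MEFs, MKOS intermediates, 3NG+ cells (red), iPSCs without doxycycline (blue) and reference groups, as log2(TMM-scaled CPM + 1), with 1 point per library and a bar at the mean on this scale. Col1a1, Hprt and Krt8 lie higher in 3NG+ cells than in iPSCs, Zscan4d is at 0 in every MKOS group before the iPSCs, and Meg3 is lowest in 3NG+ cells.

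Zscan4 genes, which encode zinc finger proteins of the two-cell embryo and mark a rare, passing state of pluripotent cells, were present in the iPSCs and near absent from 3NG+ cells. Of 11 two-cell-like genes, 6 were called (54.5%, against 2.11% of all genes), all lower, and for all 11 every 3NG+ library lay below both iPSC libraries (15.4% of all genes). Of the 11, 6 had no reads in any 3NG+ library and so lie below wherever both iPSC libraries hold reads. Reads of the Zscan4 copies may be counted for one another. The 11 are thus not independent members, and the shares are only a description. The median log2 change was -8.09, and -4.02 with genes at 0 in 3NG+ cells set to their bound. *Zscan4d* had no reads in the 3NG+ libraries and was at 59.2 and 147 CPM in the iPSC libraries (at least 197-fold lower, adjusted p = 6.31e-06). *Zscan4f* was at 42.7 and 35 CPM in iPSCs (at least 74.4-fold lower), *Zscan4c* at 13.7 and 50.4 CPM (at least 61.4-fold), and *Zscan4e* at 10.1 and 5.6 CPM (at least 15-fold), and none of the 3 had a read in 3NG+ cells. *Zscan4b* was at 0.203, 0 and 0 CPM in the 3NG+ libraries and 22.7 and 17.2 CPM in the iPSC libraries (adjusted p = 0.00341). *Tcstv1*, a gene of the same embryonic stage, was at 5.77 and 8.31 CPM in iPSCs and 0 in 3NG+ cells (adjusted p = 0.0422), and its relative *Tcstv3*, at 5.05 and 12.3 CPM against 0.203, 0 and 0 CPM, was not called (adjusted p = 0.0712). *Zscan4b*, c, d and f were called without any 1 of the 5 libraries. *Tcstv1* was called in none of these fits (adjusted p from 0.0985 to 0.134), and *Zscan4e* only in the fit without iPSC replicate 2 (adjusted p from 0.0449 to 0.0884 over all 5).

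These members are related copies in a cluster on chromosome 7, and the sequences just upstream of their starts are shown to compare the copies. These bases lie before the transcripts, so that they do not measure how often reads of one copy are counted for another. The stretches below come from RefSeq (GRCm38.p6) and run along the gene's strand, with a TATAAA box in capitals. They lie at chr7:10905054-10905145 (*Zscan4b*, minus strand), chr7:11005627-11005718 (*Zscan4c*, plus strand), chr7:11166186-11166277 (*Zscan4d*, minus strand) and chr7:11397820-11397911 (*Zscan4f*, plus strand).
Zscan4b: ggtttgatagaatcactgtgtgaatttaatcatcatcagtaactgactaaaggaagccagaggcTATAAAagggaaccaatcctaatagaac
Zscan4c: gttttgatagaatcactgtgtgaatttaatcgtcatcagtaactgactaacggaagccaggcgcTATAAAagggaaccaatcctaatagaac
Zscan4d: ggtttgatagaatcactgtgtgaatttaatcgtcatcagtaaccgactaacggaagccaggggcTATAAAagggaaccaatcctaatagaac
Zscan4f: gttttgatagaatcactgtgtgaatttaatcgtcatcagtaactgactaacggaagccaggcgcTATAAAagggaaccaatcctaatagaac
Over these 92 bases *Zscan4c* and *Zscan4f* were identical, and the other pairs shared 94.6% to 96.7% of their bases. TATAAA was found on either strand in 13.6% of 32851 RefSeq promoters of 300 bases. Since the authors gave reads with several positions to the most 5′ exonic one, the levels of single Zscan4 members are uncertain, and so are the bounds and calls given above for each of them. The 11 genes together were at 4.26, 0 and 0.863 CPM in the 3NG+ libraries and 169 and 289 CPM in the iPSC libraries, at no more than 0.839 CPM in any MKOS MEF, 2NG- or 3NG- library, and at no more than 3.97 CPM in any OKMS 3NG+ library. They were at 70.4 and 137 CPM in the iPSCs in 2i medium, 1.85 and 8.8 CPM in the TNG MKOS ESCs, and 83.8 and 883 CPM in the OKMS iPSCs. Thus the established lines ranged widely, and the lower TNG MKOS ESC library lay within the range of the 3NG+ cells.

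The Dlk1-Dio3 cluster on chromosome 12 expresses noncoding RNAs (*Meg3*, *Rian* and *Mirg*) from the maternal copy and is known to become silenced in some iPSC lines. All 3 noncoding RNAs fell in 3NG+ cells relative to iPSCs (3 of 6 genes of the cluster tested, 50%, against 0.826% of all genes), and no protein-coding gene of the cluster was called by edgeR. *Meg3* was at 27.2, 12.9 and 28.2 CPM in the 3NG+ libraries and 139.9 and 193 CPM in the iPSC libraries (log2 change -2.86 ± 0.36, adjusted p = 1.89e-06), *Rian* was at 8.93, 6.78 and 10.9 CPM in the 3NG+ libraries and 52.9 and 80 CPM in the iPSC libraries (log2 change -2.89 ± 0.41, adjusted p = 1.45e-05), and *Mirg* was at 0, 0 and 0.323 CPM in the 3NG+ libraries and 3.92 and 8.31 CPM in the iPSC libraries (log2 change -5.28 ± 1.29, adjusted p = 0.0177). The lowest iPSC library was above the highest 3NG+ library in each case. *Meg3* and *Rian* were called without any 1 library, whereas *Mirg* was not called without 3NG+ replicate 1 or 2 or iPSC replicate 2 (adjusted p of 0.0911, 0.0811 and 0.119). *Meg3* was at 312 and 324 CPM in the MKOS MEFs, 66.7, 28 and 38.3 CPM in 2NG- cells and 50, 42.3 and 57.5 CPM in 3NG- cells, and at 155 and 346 CPM in TNG MKOS ESCs. Among these groups its mean was lowest in 3NG+ cells, although the lowest 2NG- library lay just below the highest 3NG+ library. *Dio3*, a paternally expressed deiodinase gene of the cluster, was at 11, 21.4 and 6.36 CPM against 0 and 0.542 CPM and missed the threshold of edgeR (adjusted p = 0.0923), but was called by DESeq2. *Dlk1* and *Rtl1*, the other paternally expressed genes, were at 0, 0.212 and 1.62 CPM and 0, 0 and 0.216 CPM in 3NG+ cells, and at 1.34 and 0 CPM and 0 and 0.361 CPM in iPSCs.

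The 100 bases before the *Meg3* start (RefSeq, GRCm38.p6, chr12:109540896-109540995, plus strand) are shown because the 3 RNAs that moved together lie downstream of it on the same strand. The capitals mark TGACGTCA, the full cAMP response element, and TATATAA.
Meg3: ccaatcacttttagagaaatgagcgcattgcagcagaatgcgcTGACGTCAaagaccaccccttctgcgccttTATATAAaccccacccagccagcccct
TGACGTCA was found in 1.79% of the 32851 promoters of 300 bases, and TATATAA in 3.24%, on either strand. The counts hold no measure of methylation or binding at this sequence.

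Of 19 other imprinted genes, 2 were higher (1.29% of all genes) and 1 was lower (0.826% of all genes). *Igf2*, the fetal growth factor that fibroblasts express, was at 34.3, 18 and 54 CPM in the 3NG+ libraries and 0.309 and 0.903 CPM in the iPSC libraries (log2 change 6.01 ± 1.01, adjusted p = 0.000258), and it was at 6751 and 6169.9 CPM in MKOS MEFs. *H19*, its reciprocally imprinted neighbor, was at 22.1, 9.74 and 44.5 CPM and 25.8 and 11.7 CPM, with overlapping groups (adjusted p = 0.778). *Grb10*, an adaptor that restrains insulin signaling, was at 104, 111 and 28.6 CPM in the 3NG+ libraries and 5.67 and 5.6 CPM in the iPSC libraries (log2 change 3.84 ± 0.56, adjusted p = 2.72e-05), and 3NG+ replicate 3 was the lowest of its group. *Peg10*, a retrotransposon-derived gene, was at 23.3, 11.2 and 21.8 CPM in the 3NG+ libraries and 61.2 and 66.5 CPM in the iPSC libraries (log2 change -1.76 ± 0.44, adjusted p = 0.0221), and it was not called without 3NG+ replicate 2 (adjusted p = 0.12) or without either iPSC library (0.105 and 0.124).

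Of the genes of glycolysis, 4 were lower in 3NG+ cells than in iPSCs. For 14 of 17 genes tested every 3NG+ library was below both iPSC libraries (15.4% of all genes), the median log2 change was -0.85, and the 4 calls were 23.5% of the list (0.826% of all genes). *Pgk1*, phosphoglycerate kinase, was at 416, 318 and 331 CPM in the 3NG+ libraries and 2473 and 1409.8 CPM in the iPSC libraries (log2 change -2.45 ± 0.28, adjusted p = 1.72e-07). *Ldhb*, the lactate dehydrogenase B subunit, was at 21.3, 25.2 and 54.6 CPM in the 3NG+ libraries and 676 and 127 CPM in the iPSC libraries (log2 change -3.56 ± 0.55, adjusted p = 7.38e-05), with iPSC replicate 1 far above replicate 2, and without replicate 1 its adjusted p was 0.117. *Slc2a1*, the glucose transporter GLUT1, was at 160.3, 129.6 and 165 CPM in the 3NG+ libraries and 351 and 513 CPM in the iPSC libraries (log2 change -1.51 ± 0.35, adjusted p = 0.0113), and *Pfkl*, the liver-type phosphofructokinase, was at 114, 91.7 and 106 CPM in the 3NG+ libraries and 279 and 189 CPM in the iPSC libraries (log2 change -1.17 ± 0.30, adjusted p = 0.0229). *Slc2a1* was not called without 3NG+ replicate 2 or iPSC replicate 2 (adjusted p of 0.0577 and 0.183), and *Pfkl* was called only in the fit without iPSC replicate 2 (adjusted p from 0.0332 to 0.391 over all 5 fits). *Aldoa*, *Pkm* and *Ldha*, at log2 changes of -1.12 ± 0.33, -0.83 ± 0.25 and -1.10 ± 0.36, did not pass (adjusted p of 0.066, 0.0712 and 0.108), and *Gapdh* was at 3912, 4844 and 5182 CPM and 5549 and 5702 CPM (adjusted p = 0.757). *Hk1*, hexokinase 1, was on the opposite side, at 41.6, 35.6 and 38.3 CPM against 28.3 and 13.9 CPM (adjusted p = 0.33). The summed level of the list was 10889.8, 10288 and 11218 CPM in the 3NG+ libraries, 19421 and 17877 CPM in the iPSC libraries, and 10348 and 21176 CPM in the TNG MKOS ESCs, which reached from the 3NG+ range to above the iPSCs.

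*Pgk1* was one of many X-linked genes among the lower calls. This group and the genes named here were chosen after the values had been seen, and are described without a test of the group. Of 592 X-linked genes tested, 22 were called lower (3.72%, against 0.707% of 14983 autosomal genes) and 7 higher (1.18%, against 1.29%), and X-linked genes made up 17.1% of all lower calls but 3.79% of the genes tested. Among the 296 X-linked genes with a mean of at least 5 CPM, the median log2 change was -0.22, and among the 8588 autosomal genes at this level it was 0.02. *Eif2s3x*, a subunit of translation initiation factor 2, was at 134, 126 and 124 CPM in the 3NG+ libraries and 299 and 343 CPM in the iPSC libraries (log2 change -1.33 ± 0.21, adjusted p = 7.73e-05). *Nono*, an RNA-binding protein of paraspeckles, was at 344, 486 and 421 CPM in the 3NG+ libraries and 1088 and 942 CPM in the iPSC libraries (log2 change -1.28 ± 0.23, adjusted p = 0.000495), and *Rlim*, the ubiquitin ligase that activates *Xist*, was at 35.3, 46 and 29.1 CPM in the 3NG+ libraries and 145 and 131 CPM in the iPSC libraries (log2 change -1.91 ± 0.33, adjusted p = 0.000366). *Hmgn5*, a nucleosome-binding protein, and *Cox7b*, a subunit of cytochrome c oxidase, had log2 changes of -2.18 ± 0.35 and -0.80 ± 0.18. The 296 genes summed to 24934, 28959 and 27585 CPM in the 3NG+ libraries and 32809 and 31980.0 CPM in the iPSC libraries, without overlap. The sums were 31328 and 25374 CPM in the TNG MKOS ESCs and 25940.0 to 32891 CPM in the 3NG- libraries, both of which overlapped the 3NG+ range. The higher X-linked calls included *Bgn*, biglycan, a matrix proteoglycan (89.1, 16.7 and 39.4 CPM in the 3NG+ libraries and 0.619 and 0.723 CPM in the iPSC libraries), and *Timp1*, an inhibitor of matrix proteases (139, 91.7 and 183 CPM in the 3NG+ libraries and 63.8 and 50 CPM in the iPSC libraries).

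**Figure D4:**
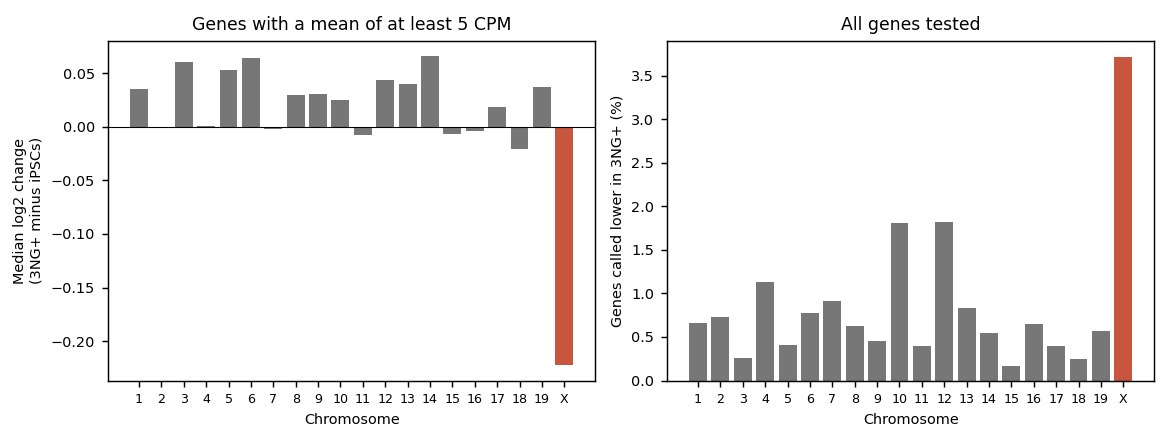
Median log2 change from iPSCs to 3NG+ cells of genes with a mean of at least 5 CPM (left) and percent of tested genes called lower in 3NG+ cells (right) for each autosome (gray) and the X chromosome (red). The X chromosome has the lowest median (-0.22) and the highest percent of lower calls (3.72%).

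None of 20 germline genes was called by edgeR or DESeq2, and 7 had an unadjusted p under 0.05 (14.2% of all genes). *Rhox5*, an X-linked homeobox gene that is active in ESCs, was at 459, 584 and 593 CPM in the 3NG+ libraries and 148 and 307 CPM in the iPSC libraries (adjusted p = 0.203), and *Sycp3*, of the synaptonemal complex, was at 29.2, 51.7 and 38.5 CPM and 256 and 73.9 CPM (adjusted p = 0.119). None of 23 cell cycle genes was called by edgeR, 6 had an unadjusted p under 0.05 (14.2% of all genes) and DESeq2 called 2 (*Ccne1* and *Ccnd2*). The mitotic gene *Cdk1* was at 319.7, 400.4 and 405 CPM and 327 and 341 CPM, and *Cdkn1a*, the p53 target p21, was at 145, 87.3 and 89.6 CPM and 28.4 and 50.4 CPM (adjusted p = 0.124). The median log2 changes of these lists were -0.999 and -0.12. Among 16 interferon-stimulated genes edgeR called none, 2 had an unadjusted p under 0.05 and DESeq2 called both (*Isg15* and *Ifi35*). For 14 primitive endoderm genes, 11 trophoblast genes and 8 neural markers edgeR called none, 4, 2 and 2 had an unadjusted p under 0.05, and DESeq2 called 1 in each (*Lamb1*, *Tfap2c* and *Pax6*). *Sparc* and *Dab2*, which mark primitive endoderm and fibroblasts as well, differed between the iPSC libraries, at 49.6 and 243 CPM and 1.96 and 38.7 CPM in replicates 1 and 2, with 3NG+ levels of 357, 98.7 and 303 CPM and 6.09, 0 and 2.05 CPM.

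The same 3NG+ libraries were set against MKOS iPSCs in 2i medium and against TNG MKOS ESCs. These comparisons share the 3NG+ libraries with the first, so that their values are given side by side and are not independent. The edgeR test called 752 genes against the iPSCs in 2i (4.81%, 19.6% at an unadjusted p under 0.05, with 2.73% higher and 2.08% lower in 3NG+ cells) and 686 against the ESCs (4.39%, 17.7% at an unadjusted p under 0.05, with 2.91% higher and 1.48% lower). Without 3NG+ replicate 3 the first count was 471, without 2i iPSC replicate 1 it was 169, and without TNG MKOS ESC replicate 2 the second was 178. *Col1a2* had log2 changes of 4.90 ± 0.65 against 2i iPSCs (adjusted p = 4.34e-06) and 8.88 ± 0.87 against ESCs (adjusted p = 6.57e-09), and *Krt8* had 3.66 ± 0.63 and 4.34 ± 0.65 (adjusted p of 0.000251 and 1.9e-05), so that these 2 genes were higher in 3NG+ cells than in each of the 3 references. *Meg3* was lower than in each of them as well, with log2 changes of -1.63 ± 0.36 against 2i iPSCs (adjusted p = 0.00439) and -3.45 ± 0.37 against ESCs (adjusted p = 5.6e-08). *Zscan4d* was at 58.5 and 28.3 CPM in 2i iPSCs but at 0.76 and 0 CPM in TNG MKOS ESCs, and only the first difference was called (adjusted p of 2.8e-05 and 0.343). *Tbx3* differed with the reference, at a log2 change of 0.19 ± 0.48 against 2i iPSCs (adjusted p = 0.901) and 4.41 ± 0.60 against ESCs (adjusted p = 3.52e-06). *Pgk1* was at 3421 and 1486 CPM in 2i iPSCs and 782 and 583 CPM in ESCs, with log2 changes of -2.79 ± 0.28 and -0.94 ± 0.27 (adjusted p of 9.54e-09 and 0.0374). *Peg10* fell against iPSCs without doxycycline but had 0.63 ± 0.48 against 2i iPSCs (adjusted p = 0.491) and -1.42 ± 0.44 against ESCs (adjusted p = 0.0551).

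Of the 13 FGF-ERK response genes, of which none was called against iPSCs without doxycycline, 6 were called against 2i iPSCs (46.2%, against 2.73% of all genes called higher), all higher in 3NG+ cells, and 1 (*Egr1*) against ESCs. *Dusp6* had a log2 change of 3.05 ± 0.46 against 2i iPSCs (adjusted p = 2.82e-05), and the other 5 were *Spry1*, *Spry2*, *Spry4*, *Spred1* and *Etv4*. *Fgf4*, *Etv5* and *Ier3* were among the 7 that were not called (log2 changes of 0.09 ± 0.46, -0.46 ± 0.32 and -0.84 ± 0.58). *Myc*, which is not of this list, had 7.44 ± 0.90 against 2i iPSCs (adjusted p = 9.11e-07). *Icam1*, which missed the threshold there, had -3.25 ± 0.63 against 2i iPSCs (adjusted p = 0.001) and -1.77 ± 0.62 against ESCs (adjusted p = 0.095).

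**Figure D5:**
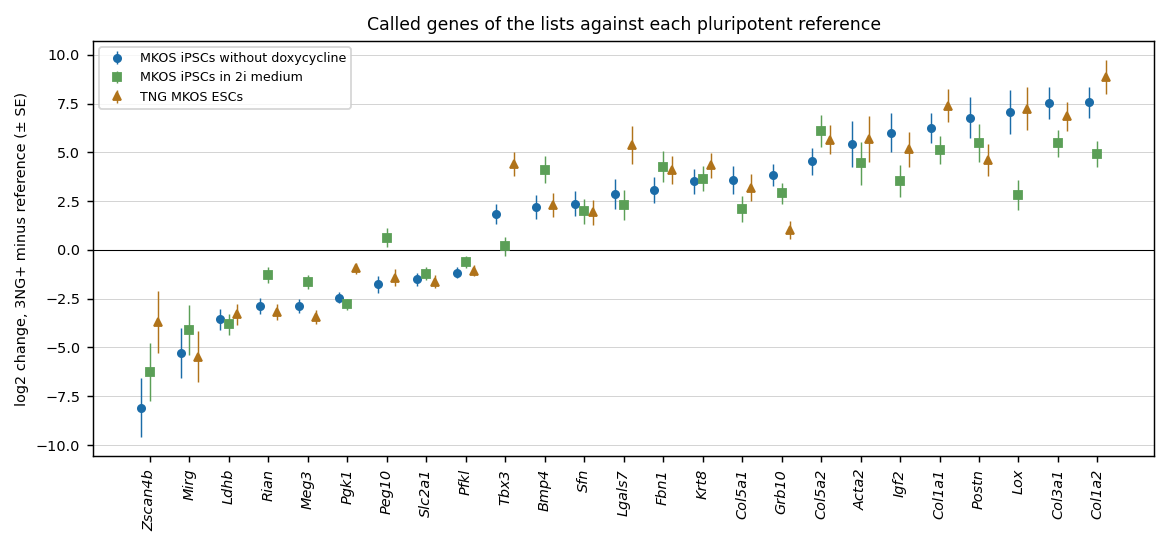
Log2 change (± SE) of 25 called list genes in 3NG+ cells against MKOS iPSCs without doxycycline (circles), MKOS iPSCs in 2i medium (squares) and TNG MKOS ESCs (triangles), for genes with reads in all 4 groups. Meg3 is below 0 against all 3 references (-2.86, -1.63 and -3.45), while Tbx3 lies between 0.19 and 4.41 and Peg10 changes side.

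The called genes had been chosen by the contrast of 3NG+ cells with iPSCs. The levels of some of them in MKOS 3NG- cells, which are not a group of that contrast, are given here as a description. *Ldhb* was at 37.9, 31.3 and 68.3 CPM and *Pgk1* at 424, 278 and 348 CPM in 3NG- cells, and both overlapped the 3NG+ libraries. *Tbx3* was at 29.3, 43.3 and 43.4 CPM and *Bmp4* at 39, 35.9 and 27.9 CPM, below every 3NG+ library. *Grb10* was at 146, 109 and 47.9 CPM, *Igf2* at 125, 73.9 and 145 CPM, and *9030619P08Rik*, which had no reads in the iPSCs without doxycycline, at 67.2, 67.7 and 70.5 CPM. That last gene was at 11.3 and 54.4 CPM in the iPSCs in 2i medium.

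Whether the contrast of 3NG+ cells with iPSCs differed between the cassettes was tested directly as the difference of both contrasts. The edgeR test called 7 of 15622 genes (0.0448%), 4 with a higher (0.0256%) and 3 with a lower (0.0192%) log2 change in MKOS, and 1560 genes (9.99%) had an unadjusted p under 0.05. *Ldhb* was at 21.3, 25.2 and 54.6 CPM in MKOS 3NG+ cells and 676 and 127 CPM in MKOS iPSCs, and at 783, 375 and 740.0 CPM in OKMS 3NG+ cells and 262 and 654 CPM in OKMS iPSCs. The groups were thus apart in MKOS and overlapped in OKMS, and the difference of the log2 changes was -4.03 ± 0.78 (adjusted p = 0.0182). *Pgk1* was at 708, 689.9 and 688 CPM in OKMS 3NG+ cells and 674 and 946 CPM in OKMS iPSCs (difference -2.23 ± 0.40, adjusted p = 0.00518). *Grb10* was at 7.65, 9.9 and 6.55 CPM in OKMS 3NG+ cells and 12.1 and 8.69 CPM in OKMS iPSCs, where the values overlapped, against the increase in MKOS given above (difference 4.27 ± 0.75, adjusted p = 0.00419). *Spink2*, a serine protease inhibitor, was at 20.7, 15.5 and 15 CPM in MKOS 3NG+ cells, 0 and 2.17 CPM in MKOS iPSCs, 1.91, 0 and 0 CPM in OKMS 3NG+ cells and 6.65 and 2.32 CPM in OKMS iPSCs (difference 6.52 ± 1.33, adjusted p = 0.0374). *Hbegf*, a ligand of the EGF receptor, *Pqlc1* and the X-linked *Armcx4* made up the rest, with differences of 3.43 ± 0.73, 3.76 ± 0.80 and -2.71 ± 0.58 (adjusted p of 0.0477, 0.0477 and 0.0477). No gene was called without MKOS iPSC replicate 1 or without OKMS iPSC replicate 1, so that each of the 7 calls rested on both libraries. For *Zscan4d*, *Meg3* and *Col1a1* a difference between the cassettes was not called (adjusted p of 0.906, 0.131 and 0.327), which does not show that the cassettes acted alike. *Zscan4d* was at 0.294, 0 and 0 CPM in OKMS 3NG+ cells and 491 and 36.1 CPM in OKMS iPSCs, *Meg3* at 49.5, 52.5 and 55.6 CPM and 123 and 69.7 CPM, and *Col1a1* at 46.2, 51.8 and 29.1 CPM and 6.65 and 1.16 CPM.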

How the data were processed

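RNA of the 48 samples, from 20000 to 100000 cells each, had been sequenced as multiplexed libraries of transcript 5′ ends (the STRT method). The authors aligned reads with Bowtie 0.12.7 to mm10, per their processing notes (the methods of the study name mm9), assigned reads with several positions to the most 5′ exonic one, and deposited raw read counts per transcript, repeat and spike-in. No molecular identifiers are described, so that depth limits cover counting error only. Rows of transcripts were used (24264), and genes on chromosome Y were left out of all descriptions. From these counts, genes were kept by edgeR's filterByExpr over 20 conditions, scaled by TMM, and fitted by edgeR 4.0.16 (R 4.3.3) with its quasi-likelihood test over all 48 libraries, 1 coefficient per condition, with Benjamini-Hochberg adjustment over the 15630 genes kept (15622 without chromosome Y). Standard errors are the log2 change divided by the square root of F. DESeq2 1.42.0 was an alternative. The script was tested on simulated counts. Python 3.11.15 with pandas 2.3.3, numpy 2.4.6 and matplotlib 3.10.9 made tables and plots.

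The named genes were, among those called, without overlap and with a mean of at least 5 CPM in the higher group, the 12 with the largest log2 change in each direction, up to 5 in each direction for the cassette difference, and any members of 26 gene lists. The members and lists were chosen with earlier results of these data known. A fold bound sets each library at 0 to its own 3 reads. Alternatives were other scalings, no filter, DESeq2, only the libraries of the groups compared, 41 libraries (without 7 sorted libraries that do not enter the averages in the study's own table of expression values), a replicate block, both kinds of iPSCs as the reference, and each library left out. Sequences came from RefSeq (GRCm38.p6).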

Additional observations from a re-analysis of the deposited data

Results flagged for a closer look

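The contrast of 3NG+ cells with iPSCs differed between MKOS and OKMS by the test of the difference itself for 7 genes, and each value here is the log2 change in MKOS minus that in OKMS (edgeR, adjusted over all genes). The change was higher in MKOS for *Spink2* (6.52 ± 1.33, adjusted p = 0.0374), *Grb10* (4.27 ± 0.75, adjusted p = 0.00419), *Pqlc1* (3.76 ± 0.80, adjusted p = 0.0477) and *Hbegf* (3.43 ± 0.73, adjusted p = 0.0477). It was lower in MKOS for *Ldhb* (-4.03 ± 0.78, adjusted p = 0.0182), *Armcx4* (-2.71 ± 0.58, adjusted p = 0.0477) and *Pgk1* (-2.23 ± 0.40, adjusted p = 0.00518). *Pqlc1* was at 15.6, 21 and 17.4 CPM in MKOS 3NG+ cells, 3.61 and 5.6 CPM in MKOS iPSCs, 3.97, 7.62 and 1.01 CPM in OKMS 3NG+ cells and 11.6 and 12.9 CPM in OKMS iPSCs. *Hbegf* was at 19.5, 15.5 and 10 CPM, 9.07 and 10.3 CPM, 2.06, 7.62 and 3.86 CPM and 33 and 20.9 CPM in the same order of groups, and *Armcx4* was at 2.64, 3.6 and 5.07 CPM, 10.3 and 12.3 CPM, 16.8, 19 and 16 CPM and 7.36 and 7.92 CPM.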

How the results depend on the processing

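The 330 calls between 3NG+ cells and iPSCs became 561 with DESeq2, 735 with both kinds of iPSCs as the reference, 579 in a fit to 41 libraries, and 793 with no filter on low counts, and 320, 256, 326 and 316 of the 330 genes were called in these fits. They were 322 with DESeq2's size factors, 336 without TMM factors and 279 with only the libraries of the groups compared. Of the 330 genes, 320, 314 and 186 were called in these fits, so that the last setting kept far fewer of them than its count implies. Leaving out 1 library gave 116 to 254. The 7 calls of the cassette difference became 76 with DESeq2, 224 without the filter and 2 with only the libraries of the groups compared, and ranged from 0 to 29 with 1 library left out. The calls against iPSCs in 2i (752) became 1164 with DESeq2 and 1224 without the filter, and those against TNG MKOS ESCs (686) became 1073 and 1192, with ranges of 169 to 656 and 178 to 741 with 1 library left out. Without X-linked genes, a setting chosen after seeing the data, the counts were 301, 5, 710 and 646. The 49 single genes followed across these fits had been chosen because they were called in the main contrast. None of them changed direction, which was largely set by this choice. Of the 49, 18 were no longer called without 3NG+ replicate 1, 12 without replicate 2 and 11 without replicate 3.

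The replicate numbers did not pair the 3NG+ libraries with the iPSC libraries, since deviations of same-numbered libraries from their group means correlated at 0.0151 and -0.0119. The correlations were 0.0654 and 0.00541 with the iPSCs in 2i, -0.121 and -0.057 with the TNG MKOS ESCs, and -0.0364, 0.00613 and 0.0947 with the OKMS 3NG+ cells. The MKOS intermediates are in no contrast here, but they are part of the fit and its estimate of spread behind every test. With them, replicates 1 and 3 deviated together (0.23 and 0.241 with 3NG-, 0.246 and 0.218 with 2NG-) and replicate 2 did not (-0.00697 and 0.0254). With the replicate number as a block, 493 genes were called in the main contrast (310 of the 330 among them), 17 for the cassette difference, 918 against iPSCs in 2i and 915 against TNG MKOS ESCs. With 2 or 3 libraries per group, 3 reads in a library correspond to 0.309 to 0.636 CPM, so that genes at this level rest on single reads, and a gene that was not called may still differ.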

Other observations

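Other called genes, chosen after their values had been seen, are given as values. *Mgp*, the matrix *Gla* protein of cartilage and stroma, was at 124, 33.9 and 151 CPM in the 3NG+ libraries and 0 and 1.26 CPM in the iPSC libraries (log2 change 7.67 ± 0.99, adjusted p = 4.29e-06), and *Ogn*, a matrix proteoglycan, was at 34.7, 6.57 and 12.4 CPM in the 3NG+ libraries and 0.619 and 0 CPM in the iPSC libraries. *Ptn*, the growth factor pleiotrophin, was at 69.8, 46 and 64.8 CPM in the 3NG+ libraries and 0.825 and 0 CPM in the iPSC libraries (log2 change 6.84 ± 0.98, adjusted p = 2.01e-05), and *Ly6a*, which encodes the surface antigen SCA-1, was at 74.9, 72.4 and 132 CPM in the 3NG+ libraries and 1.96 and 4.34 CPM in the iPSC libraries (log2 change 4.95 ± 0.84, adjusted p = 0.000285). Unlike the collagens, 3NG+ replicate 2 was close to replicate 1 for *Ly6a*. *Idh1*, cytosolic isocitrate dehydrogenase, was at 179.7, 301 and 218 CPM in the 3NG+ libraries and 47.4 and 59.4 CPM in the iPSC libraries (log2 change 2.12 ± 0.34, adjusted p = 0.000146), *Scd1*, which desaturates fatty acids, was at 47.9, 63.8 and 66.3 CPM in the 3NG+ libraries and 10.4 and 11 CPM in the iPSC libraries (log2 change 2.47 ± 0.41, adjusted p = 0.00024), and *Acaa2*, of mitochondrial β-oxidation, was at 146, 169.7 and 137 CPM in the 3NG+ libraries and 51.6 and 31.6 CPM in the iPSC libraries (log2 change 1.85 ± 0.31, adjusted p = 0.000258). The autophagy genes *Gabarapl2* and *Map1lc3b*, which encode ATG8 proteins of the autophagosome, were higher too, at 1199, 2098 and 1966 CPM in the 3NG+ libraries and 451 and 552 CPM in the iPSC libraries for *Gabarapl2* and 609.6, 791 and 716 CPM and 252 and 335 CPM for *Map1lc3b* (adjusted p of 0.00154 and 0.00651). *Hes1*, a Notch-responsive repressor, was at 213, 223 and 154 CPM in the 3NG+ libraries and 52.1 and 48.2 CPM in the iPSC libraries (log2 change 1.97 ± 0.40, adjusted p = 0.00341).

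Among the lower calls, *Bnip3*, a mitophagy receptor that hypoxia induces, was at 57.2, 33.9 and 49.3 CPM in the 3NG+ libraries and 345 and 241 CPM in the iPSC libraries (log2 change -2.64 ± 0.58, adjusted p = 0.00852). *Kcnq1ot1*, the imprinted antisense RNA of the Kcnq1 domain, was at 10.3, 16.7 and 20.7 CPM in the 3NG+ libraries and 51.3 and 55.3 CPM in the iPSC libraries (log2 change -1.73 ± 0.38, adjusted p = 0.00752). *Pgm2*, which converts glucose phosphates, was at 11.8, 7.63 and 8.09 CPM in the 3NG+ libraries and 78.3 and 35.6 CPM in the iPSC libraries (log2 change -2.64 ± 0.45, adjusted p = 0.000258), and *Txnrd1*, thioredoxin reductase, was at 48.1, 50.4 and 55.8 CPM in the 3NG+ libraries and 111 and 123 CPM in the iPSC libraries (log2 change -1.18 ± 0.24, adjusted p = 0.00341).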
